A study of Mus musculus with 6 samples.

Results

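The dystroglycan-dystrophin complex links the basement membrane outside a cell to the cytoskeleton inside it. Dystroglycan spans the membrane, and its sugar chains bind laminin, agrin and perlecan. On the inner side it holds dystrophin or its relative utrophin, which in turn carry dystrobrevins and syntrophins. In the cerebellum the complex is known from the endfeet by which Bergmann glia, astrocytes with radial fibres, are attached to the basement membrane under the meninges. Loss of dystroglycan or of the enzymes that glycosylate it disturbs that boundary in mice. The genes described are Dag1, Dmd, Utrn, Dtna, Sntb1, Sntb2, Sgcb and Pomt1, taken as the loci of the deposited table whose gene column holds one of these 8 symbols. Each symbol was found at 1 locus, so that the set is 8 of the 23793 loci of the table, and all 8 reached 1 FPKM (fragments scaled to transcript length and library size) in at least 3 libraries, as did 13612 loci in all. The symbols were selected on knowledge of the pathway and with earlier results in view, that is, the FPKM of these same cKO and control libraries. Values of these 8 genes in that comparison are therefore a description, and their counts support nothing further.

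RNA was measured in the cerebellum of mice at postnatal day 0, in 3 Zeb2 cKO libraries (Zeb2 f/f; hGFAP-cre) and 3 control libraries (Zeb2 f/+; hGFAP-cre). The title of the series sets the question, the part played by the transcription factor Zeb2 in Bergmann glia and in the organisation of the cerebellum. Both groups carry the Cre transgene, driven by the human GFAP promoter, and at least 1 floxed allele, so the controls are heterozygous where Cre acts and are not wild type. The promoter is active in neural progenitors and glia, and other cells of the tissue keep Zeb2. The labels do not say that each library came from a separate animal, so a p-value here measures the spread between these libraries only.

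The libraries summed to between 497542 and 524474 FPKM, and their read depth is unknown. Zeb2 itself stood at 6.19, 3.89 and 5.81 FPKM in cKO, against 11.4, 9.52 and 7.995 FPKM in controls, without overlap (log2 fold change -0.77, SE 0.18, limma adjusted p = 0.107, exact two-sided permutation p = 0.1, the smallest that 3 against 3 can give). Zeb2 passed with small-RNA loci left out (limma adjusted p = 0.0469, and 0.0469 to 0.312 over the alternatives). Which exons Cre removes is not in the labels, and the locus value includes those that remain. Xist lay between 142 and 147 FPKM in cKO and between 0.331 and 0.515 FPKM in controls, and the Y-linked gene Eif2s3y between 0.0270 and 0.108 FPKM in cKO and between 34.4 and 37.2 FPKM in controls, so genotype and sex cannot be told apart. Of the first principal component (29.5% of the variance), cKO 3 held 0.0643, against 0.521 and 0.535 for the other cKO libraries and -0.483, -0.350 and -0.287 for the controls, and values that rest on it are given with and without it. Markers of the tissue, from the granule cell factor Atoh1 to the Purkinje cell gene Pcp2, summed over 9 genes to between 895 and 918 FPKM in cKO and between 874 and 936 FPKM in controls, and none was at 0. Single markers went both ways, 5 with positive and 4 with negative log2 fold changes, from -0.45 (Atoh1, with overlap) to 0.21 (Car8, with overlap). Of the 9, 2 were higher in cKO without overlap (Calb1 and Foxp2), as were 10.3% of all tested loci.

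Among the 8 genes, Sntb1 was the one called by the fit across all loci, and it was higher in cKO. Over all 13612 tested loci, limma called 78 after Benjamini-Hochberg adjustment at a threshold of 0.05, which is 0.573% of them, and 0.242% were called higher. The number of called loci was 21, 27 and 44 without cKO 1, 2 and 3, and 33, 28 and 55 without control 1, 2 and 3. Expression of cKO and control did not overlap for 2 of the 8 genes, Sntb1 (higher) and Dtna (lower), and for 23.9% of all tested loci. The median log2 fold change of the 8 genes was 0.03, beside -0.0095 over all tested loci. The remaining 7 genes had log2 fold changes between -0.21 and 0.15, and the 95% intervals of these reached at most from -0.37 to 0.44. Log2 fold changes are of FPKM + 1, cKO minus control. In these bulk samples, fewer cells of a type and less RNA per cell cannot be told apart.

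**Figure D1:**
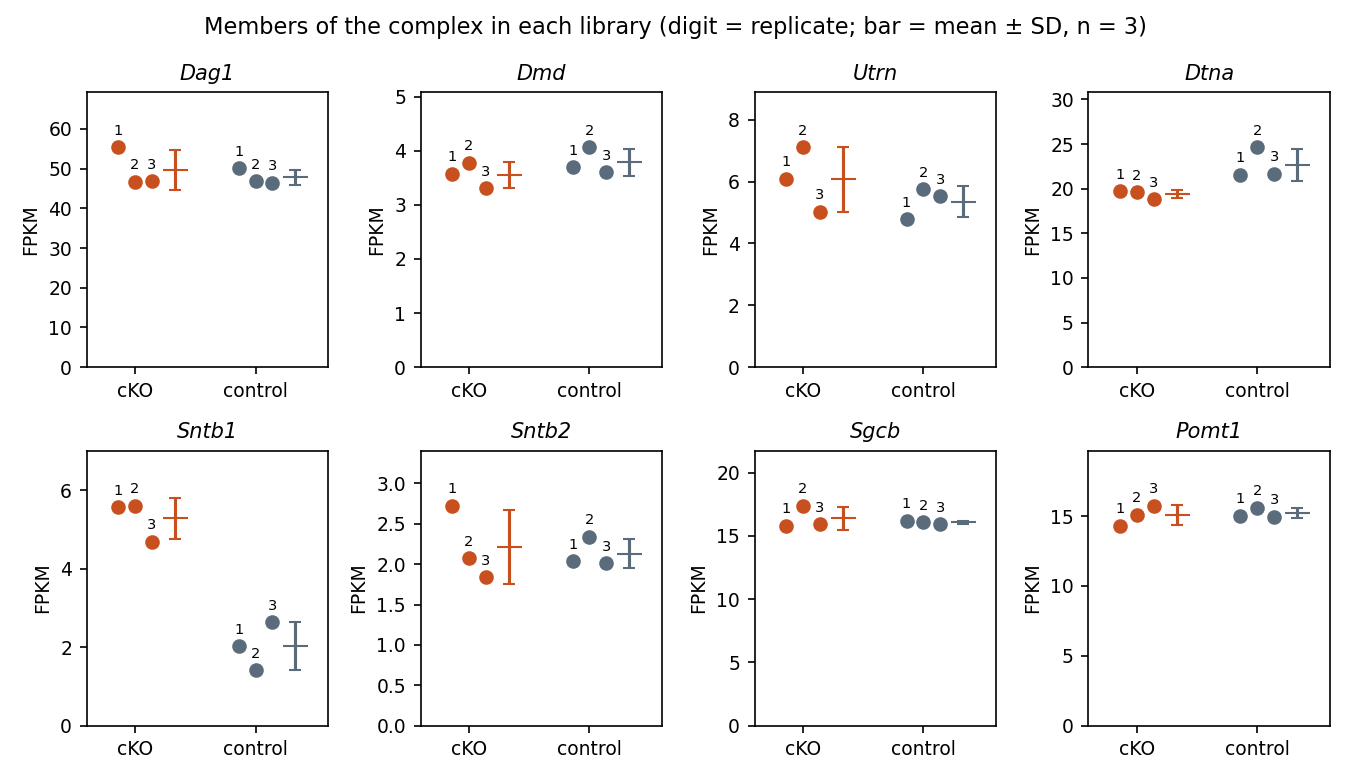
FPKM (vertical axis, from 0) of each of the 8 genes in the 3 cKO libraries (orange, left) and the 3 control libraries (blue-grey, right), with the replicate number above each point and the mean ± SD beside them (n = 3 each). Sntb1 lies between 4.69 and 5.61 FPKM in cKO and between 1.42 and 2.64 FPKM in controls, and Dtna is lower in every cKO library, while the other 6 genes overlap.

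Sntb1 encodes a beta syntrophin, an adaptor that binds dystrophin, utrophin and dystrobrevin and holds channels and signalling proteins through its PDZ domain. Its locus (XLOC_007257; GRCm38 chromosome 15, 55636388 to 55906949, minus strand) had 5.58, 5.61 and 4.69 FPKM in cKO 1, 2 and 3, against 2.03, 1.42 and 2.64 FPKM in controls 1, 2 and 3. The lowest cKO library stood clear of the highest control library. The group means were 5.29 ± 0.525 FPKM in cKO and 2.03 ± 0.609 FPKM in controls (SD, n = 3 each), a ratio of 2.61. The log2 fold change was 1.07 (SE 0.15, 95% interval 0.71 to 1.44, limma adjusted p = 0.0439), and 1.14% of all tested loci had a larger change in either direction. The direction was the same without any 1 library, but the call was lost without cKO 1 (log2 fold change 1.04, limma adjusted p = 0.150), cKO 2 (1.03, 0.157), cKO 3 (1.14, 0.0734), control 1 (1.08, 0.148) or control 2 (0.92, 0.112), and held without control 3 (1.21, 0.0335). It also fell short at a pseudocount of 0.5 (limma adjusted p = 0.0536) or 0.1 (0.0618), although the log2 fold change was then 1.22 or 1.38.

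By the steps of values under 0.1 FPKM the libraries fell into 2 sets, with cKO 1, cKO 2, control 2 and control 3 in one and cKO 3 and control 1 in the other. These sets were inferred from the values alone and are called processing sets here. What set them apart was not tested. Within the larger set Sntb1 averaged 5.596 FPKM in cKO and 2.03 FPKM in controls. In the smaller set it stood at 4.69 FPKM in cKO 3 and 2.03 FPKM in control 1. Sntb1 was thus higher in cKO in both sets, but the smaller set is 1 library against 1 and gives no measure of spread. Adding the set to the model gave a limma adjusted p of 0.0687, and the larger set alone gave a limma adjusted p of 0.191.

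**Figure D2:**
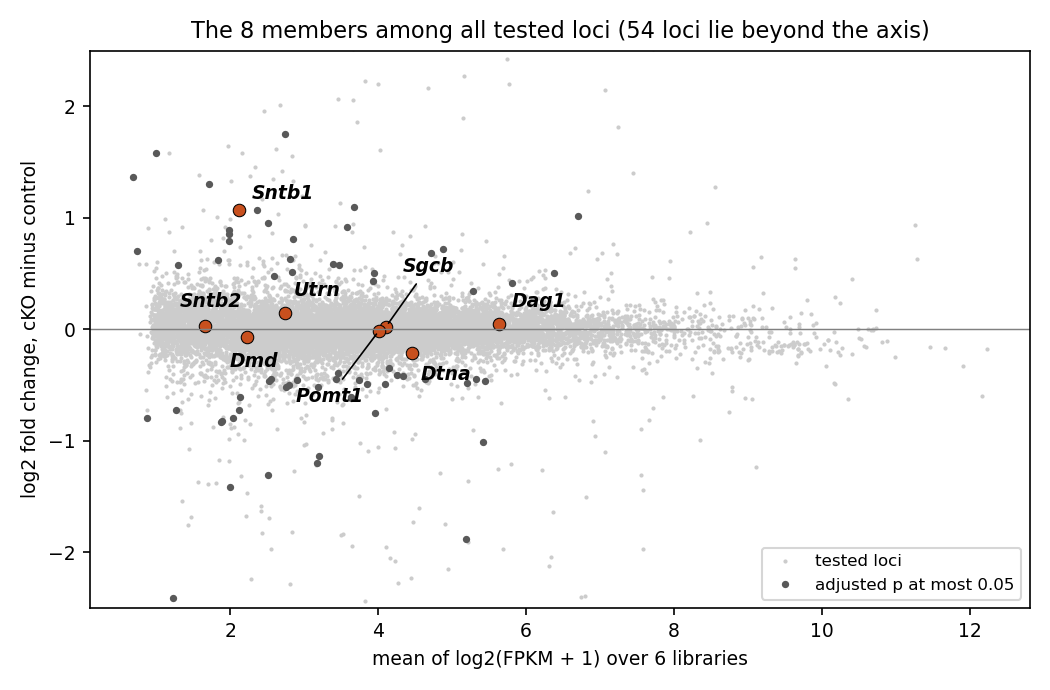
Log2 fold change (cKO minus control) against the mean of log2(FPKM + 1) over the 6 libraries, for all 13612 tested loci (light grey), the 78 called loci (dark grey, where within the axis) and the 8 genes (orange); 54 loci lie beyond the vertical axis. Sntb1 lies at 1.07 and the other 7 genes lie between -0.21 and 0.15, inside the cloud of uncalled loci.

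The beta syntrophins are close relatives, and reads of one could be assigned to the other. The stretch of 75 coding bases at which Sntb1 and Sntb2 are most alike lies in the part that encodes the PDZ domain, and is shown so that the letters can be compared. Sequences are from GENCODE M21 transcripts (GRCm38), 5′ to 3′ on the coding strand, with capitals at the 11 positions where both differ.
Sntb1 (chr15:55906054-55906128, minus strand, exon 1): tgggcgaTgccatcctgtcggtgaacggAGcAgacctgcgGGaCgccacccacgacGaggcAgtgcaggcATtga
Sntb2 (chr8:106936217-106936291, plus strand, exon 1): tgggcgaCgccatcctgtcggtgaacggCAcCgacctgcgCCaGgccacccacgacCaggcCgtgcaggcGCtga
Of these 75 bases, Sntb2 shares 64 with Sntb1. The longest run of identical coding bases between them was 20. No stretch of 50 bases of the longest Sntb1 transcript occurs in a transcript of another syntrophin gene. Of its 4870 such stretches, 11 (0.226%) occur in transcripts of other genes, and no exon of Sntb1 overlaps that of another gene.

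Sntb2 encodes the second beta syntrophin. Its locus (XLOC_020661; GRCm38 chromosome 8, 106935750 to 107019714, plus strand) had 2.73, 2.08 and 1.84 FPKM in cKO and 2.04, 2.34 and 2.01 FPKM in controls. The libraries of both groups are interleaved, with the highest and the lowest value both in cKO. This gave a log2 fold change of 0.03 (SE 0.11, 95% interval -0.24 to 0.30). In controls Sntb1 and Sntb2 were the lowest of the 8 genes and their ranges overlapped, whereas in cKO the range of Sntb1 lay above that of Sntb2.

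The share of Sntb1 in the summed FPKM of both beta syntrophins was 67.2, 73.02 and 71.8% in cKO 1, 2 and 3, against 49.9, 37.7 and 56.7% in controls 1, 2 and 3. Sntb1 was thus the more abundant per length in every cKO library and in control 3, and the less abundant in controls 1 and 2. The summed level averaged 7.51 ± 0.904 FPKM in cKO and 4.16 ± 0.452 FPKM in controls (SD, n = 3 each).

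**Figure D3:**
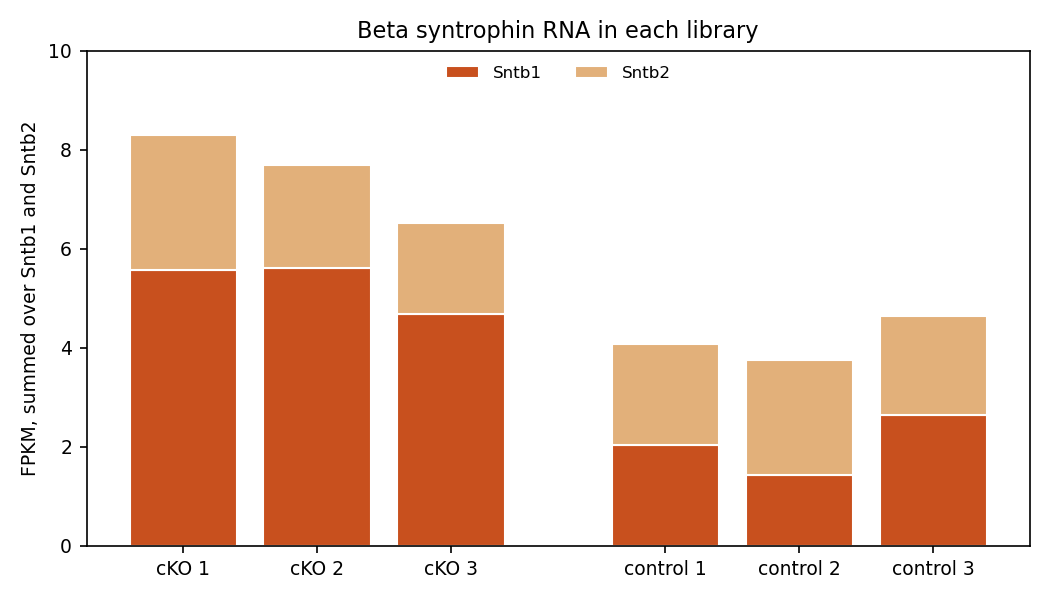
FPKM (vertical axis, from 0) of Sntb1 (orange) and Sntb2 (pale), stacked, in each cKO library (left) and each control library (right). The Sntb1 segment is 4.69 to 5.61 FPKM in cKO and 1.42 to 2.64 FPKM in controls, while the Sntb2 segment is 1.84 to 2.73 FPKM in cKO and 2.01 to 2.34 FPKM in controls.

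Dag1 encodes dystroglycan, from whose precursor both the laminin-binding alpha and the membrane-spanning beta subunit are cut. It was the most abundant of the 8 genes per length, and its mean in controls was 2.11 times that of Dtna, the next in order. Its locus (XLOC_022555; GRCm38 chromosome 9, 108204634 to 108263958, minus strand) had 55.4, 46.7 and 46.8 FPKM in cKO and 50.04, 46.8 and 46.4 FPKM in controls. cKO 1 and control 1 stood above the rest of their groups, and the groups overlapped. The log2 fold change was 0.05 (SE 0.08, 95% interval -0.13 to 0.24), and it changed sign to -0.03 without cKO 1, the highest library.

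Zeb2 binds DNA through zinc fingers that recognise CACCT. RefSeq promoter windows (GRCm38.p6, 250 bases before to 50 after a start) were searched for 5 of the 8 genes, Dag1, Dmd, Utrn, Sgcb and Pomt1, in 7 windows. Sntb1 and Sntb2 had no window in the source used, and Dtna was left out of the search. The counts of windows therefore say nothing about Sntb1, Sntb2 or Dtna. CACCT was searched on both strands, where it reads AGGTG on the reverse strand. It was found in 3 of the 7 windows, that is, both of Dag1, which overlap each other, and 1 of Dmd, and 51.9% of all 32851 windows held it. The longer CACCTG was in 0 of the 7 and in 20.2% of all windows. The first window of Dag1 is printed because it held the most matches, and the capitals mark them.
Dag1 (chr9:108263909-108264208, minus strand): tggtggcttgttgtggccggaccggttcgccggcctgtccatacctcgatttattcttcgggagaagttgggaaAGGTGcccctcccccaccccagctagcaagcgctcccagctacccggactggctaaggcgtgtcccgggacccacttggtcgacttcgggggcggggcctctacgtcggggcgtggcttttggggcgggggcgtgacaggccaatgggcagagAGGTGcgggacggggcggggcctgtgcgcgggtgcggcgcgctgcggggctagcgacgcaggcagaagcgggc
A match of letters is a description and not a binding site.

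Dmd and Utrn encode dystrophin and utrophin, long proteins that tie beta dystroglycan to actin. Dmd (XLOC_022929; GRCm38 chromosome X, 82948870 to 85206141, plus strand) had 3.58, 3.78 and 3.31 FPKM in cKO and 3.69, 4.07 and 3.61 FPKM in controls, values that overlap. Its log2 fold change was -0.07 (SE 0.07, 95% interval -0.25 to 0.10). The gene lies on the X chromosome, and for it too genotype and sex cannot be told apart. GENCODE lists 3 coding transcripts of Dmd, of 1858 to 14910 bases, and a value per locus does not separate the full-length from the short dystrophins that glia make.

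Utrn (XLOC_001908; GRCm38 chromosome 10, 12382188 to 12869365, minus strand) had 6.10, 7.12 and 5.02 FPKM in cKO and 4.79, 5.74 and 5.53 FPKM in controls. The top of the range was in cKO and the bottom in controls, with cKO 3 among the controls. Its log2 fold change was 0.15 (SE 0.12, 95% interval -0.14 to 0.44), 0.26 without cKO 3 and 0.04 without cKO 2. Of the sum of Dmd and Utrn, Dmd made up 37.0, 34.7 and 39.7% in cKO and 43.5, 41.5 and 39.5% in controls, shares that overlap by a narrow margin. Utrn was the more abundant per length in all 6 libraries.

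Dtna encodes alpha dystrobrevin, which binds dystrophin and syntrophins. Its locus (XLOC_009579; GRCm38 chromosome 18, 23415135 to 23659715, plus strand) had 19.7, 19.6 and 18.8 FPKM in cKO 1, 2 and 3, against 21.5, 24.7 and 21.7 FPKM in controls 1, 2 and 3. Every cKO library lay under every control library, with control 2 the highest. The mean in cKO was 85.6% of that in controls and the log2 fold change was -0.21 (SE 0.06, 95% interval -0.37 to -0.06). It did not pass (limma adjusted p = 0.180, with limma adjusted p from 0.142 to 0.430 over the alternatives), and without control 2 it was -0.15. Dtnb, the beta dystrobrevin, averaged 18.3 ± 0.128 FPKM in cKO and 17.5 ± 1.10 FPKM in controls (SD, n = 3 each), so that Dtna made up 51.9, 51.9 and 50.5% of the sum of both in cKO and 57.0, 57.9 and 54.2% in controls. An antisense gene, Gm47898, covers 0.532% of the exon bases of Dtna, and the sources used here do not say whether counting used the strand.

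Sgcb encodes beta sarcoglycan, a membrane subunit best known from muscle. Its locus (XLOC_016307; GRCm38 chromosome 5, 73632749 to 73647790, minus strand) had 15.8, 17.4 and 15.9 FPKM in cKO and 16.2, 16.1 and 15.9 FPKM in controls. The control libraries fell within a narrow band, with cKO 2 above it and the other cKO libraries just under it. With these values the log2 fold change was 0.02 (SE 0.05, 95% interval -0.11 to 0.15), and -0.02 without cKO 2.

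Pomt1 encodes an enzyme that puts the first mannose of the laminin-binding sugar chain on alpha dystroglycan. Its locus (XLOC_011049; GRCm38 chromosome 2, 32236590 to 32255005, plus strand) had 14.3, 15.1 and 15.8 FPKM in cKO and 15.04, 15.6 and 14.9 FPKM in controls. The cKO libraries enclosed the range of the controls. The log2 fold change was -0.01 (SE 0.05, 95% interval -0.14 to 0.12), with a sign that changed without cKO 1 (0.02), without control 2 (0.0049) and with quantile normalization (0.0072). In controls the order of levels per length was Dag1, Dtna, Sgcb, Pomt1, Utrn, Dmd, Sntb2 and Sntb1, and each gene's range lay clear of the next except for the last pair. In cKO the range of Sntb1 lay above those of Sntb2 and Dmd, and its mean of 5.29 FPKM was under that of Utrn, 6.08 FPKM.

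Other genes of the pathway were taken in 5 lists from textbook knowledge, with 50 genes in all, of which 49 were matched to the table and 46 were tested. None of the 46 was called over all loci by limma, against 0.573% of all tested loci. Before adjustment 5 had a p under 0.05 with a higher level in cKO and 3 with a lower one, in all 8 of 46, and 17.6% of all tested loci had such a p. The median log2 fold change of the 46 was 0.04, beside -0.0095 over all tested loci.

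**Figure D4:**
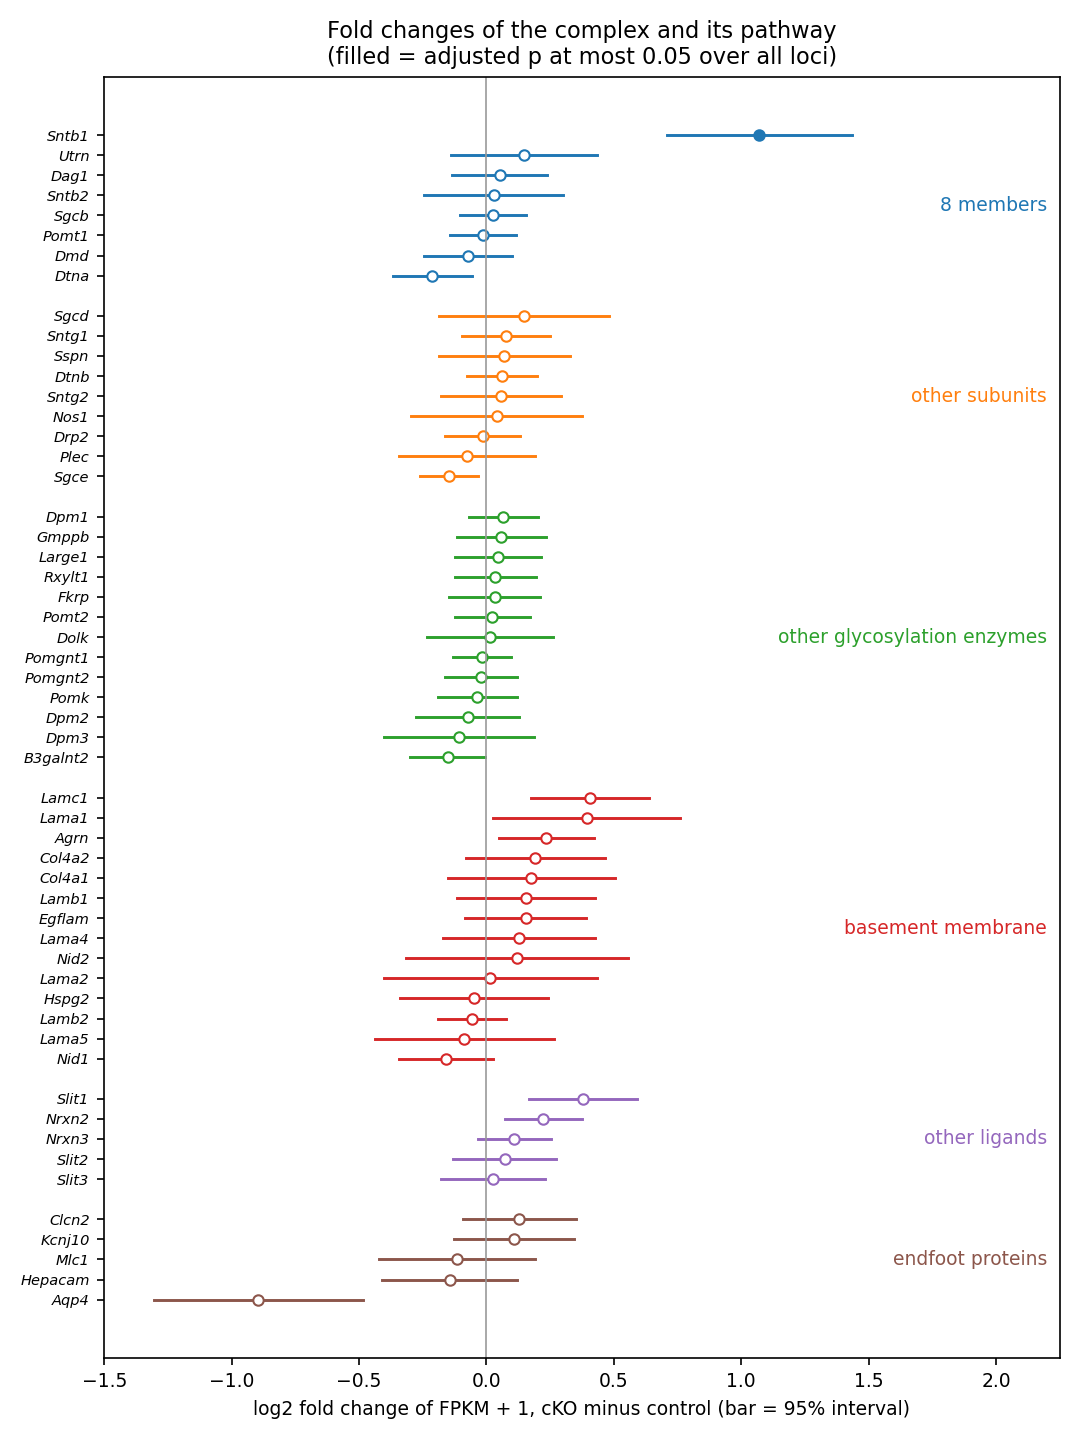
Log2 fold change (horizontal axis, cKO minus control, of FPKM + 1) with its 95% interval for the 8 genes and the 46 tested genes of the 5 pathway lists, ordered by value within each list. The one filled point is Sntb1 at 1.07, the point farthest to the left is Aqp4 at -0.90, and the medians of the 5 lists lie between -0.12 and 0.14.

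Of 11 other subunits 9 were tested, 0 were called by limma and 1 had a p under 0.05 (median log2 fold change 0.06). This was Sgce, epsilon sarcoglycan, with 12.3, 12.9 and 12.6 FPKM in cKO and 14.1, 14.1 and 13.9 FPKM in controls (log2 fold change -0.15, SE 0.05, limma adjusted p = 0.196). Sntg1, a gamma syntrophin, and Dtnb had log2 fold changes of 0.08 and 0.06. The muscle sarcoglycan Sgca stayed under 1 FPKM in every library and was not tested.

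Of 15 other genes of dystroglycan glycosylation 14 were matched and 13 tested, with 0 called by limma, 1 with a p under 0.05 and a median log2 fold change of 0.01. That gene was B3galnt2, which extends the chain on that mannose. It averaged 6.49 ± 0.407 FPKM in cKO and 7.32 ± 0.107 FPKM in controls (SD, n = 3 each; log2 fold change -0.15, SE 0.06), without overlap. Dpm1, a subunit of the dolichol phosphate mannose synthase, had a log2 fold change of 0.07, and the partner of Pomt1, Pomt2, one of 0.02. The log2 fold changes of the 13 lay between -0.15 and 0.07.

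Genes of basement membrane proteins had a median log2 fold change of 0.14 over 14 tested members, with 0 called by limma and 3 with a p under 0.05, all higher in cKO. Lamc1, a laminin gamma chain, had 18.7, 17.9 and 14.3 FPKM in cKO and 12.5, 12.3 and 12.6 FPKM in controls (log2 fold change 0.41, SE 0.10, limma adjusted p = 0.116). The groups did not overlap, cKO 3 was the lowest cKO library, and without it the limma adjusted p was 0.0405 (log2 fold change 0.52). Agrn, which encodes agrin, had 96.9, 98.8 and 91.0 FPKM in cKO and 72.6, 86.4 and 84.7 FPKM in controls, without overlap (log2 fold change 0.24, SE 0.08). Lama1, a laminin alpha chain of the meningeal basement membrane, averaged 3.25 ± 0.901 FPKM in cKO and 2.19 ± 0.223 FPKM in controls (SD, n = 3 each; log2 fold change 0.39, SE 0.15), with overlap. Markers of meningeal fibroblasts (10 genes, none at 0) summed to 43.4, 73.2 and 24.8 FPKM in cKO 1, 2 and 3, against 44.5, 22.1 and 21.2 FPKM in controls 1, 2 and 3. The sums overlapped through control 1, and in cKO they had the order of Lama1, highest in cKO 2 and lowest in cKO 3. In controls the orders differed. There the sum was highest in control 1, while Lama1 had 2.13, 2.01 and 2.44 FPKM in controls 1, 2 and 3. Of the 8 tested markers 7 had positive log2 fold changes (median 0.96), 0 were called by limma, 2 had a p under 0.05 and were apart and higher in cKO (Ptgds and Foxc1), and 1 was so and lower (Islr). The part of these markers in the values of basement membrane genes was not tested.

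Dystroglycan also binds neurexins and Slit proteins, and all 5 tested genes of these had positive log2 fold changes (median 0.11), as had 47.02% of all tested loci, with 0 called by limma and 2 with a p under 0.05. Slit1, a guidance protein, averaged 10.3 ± 0.489 FPKM in cKO and 7.73 ± 0.949 FPKM in controls (SD, n = 3 each; log2 fold change 0.38, SE 0.09, limma adjusted p = 0.113). Nrxn2, a neurexin gene, had 84.9, 74.2 and 81.1 FPKM in cKO and 69.7, 65.4 and 69.9 FPKM in controls (log2 fold change 0.22, SE 0.06, limma adjusted p = 0.163). The groups did not overlap for Slit1 or Nrxn2. Nrxn3, a further neurexin gene, had a log2 fold change of 0.11 (SE 0.06), with overlap.

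Of 5 proteins that astrocyte endfeet hold, 0 were called by limma and 1 had a p under 0.05. This was Aqp4, the water channel of astrocyte endfeet, with 5.89, 6.02 and 8.10 FPKM in cKO and 16.7, 12.6 and 10.8 FPKM in controls. Every cKO library lay under every control library and the mean in cKO was 49.9% of that in controls (log2 fold change -0.90, SE 0.17, limma adjusted p = 0.0788). Aqp4 passed with small-RNA loci left out (limma adjusted p = 0.0295) and with the processing set in the model (0.0165). In 15 other alternatives no pathway gene was called, and so Aqp4 did not pass there. Clcn2, a chloride channel, and Hepacam, an adhesion protein, had log2 fold changes of 0.13 and -0.14. Kcnj10, the potassium channel known to sit with Aqp4 at endfeet, had one of 0.11 (SE 0.10).

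Markers of cell types that a cerebellum can hold were summed per library. Microglia markers summed to 58.1, 54.2 and 53.7 FPKM in cKO and 40.6, 39.6 and 40.6 FPKM in controls, and 9 of 9 were higher in every cKO library than in any control, with 1 called by limma (Csf1r). Over all tested loci 10.3% were apart and higher in cKO, and 0.242% were called higher. Endothelial markers (9 genes) summed to between 134 and 145 FPKM in cKO and between 103 and 125 FPKM in controls, with 0 called by limma, 3 of 9 at a p under 0.05 and 2 of 9 apart and higher. Of the 9, 8 had positive log2 fold changes, with a median of 0.15 and a range from -0.0072 (Kdr) to 0.83 (Mfsd2a). Mfsd2a had 24.9, 29.3 and 29.5 FPKM in cKO and 14.6, 12.2 and 19.6 FPKM in controls. The endothelial sum was 134 FPKM in cKO 3, with 29.5 FPKM from Mfsd2a, and 125 FPKM in control 3, with 19.6 FPKM from it. Without Mfsd2a, cKO 3 lay just under control 3, and the groups overlapped. The sums of microglia markers, and those of endothelial markers only with Mfsd2a included, were apart between groups in the same direction as Sntb1. Their part in the difference of Sntb1 was not tested. Skeletal muscle markers (9 genes) summed to between 9.22 and 10.98 FPKM in cKO and between 7.34 and 7.89 FPKM in controls, with Ckm and Myog, the defining enzyme and factor of muscle, at 0 in some libraries and 2 of 9 tested. That gap lay in Myh8, a myosin gene, at 6.06, 3.51 and 3.50 FPKM in cKO and 1.46, 1.30 and 2.73 FPKM in controls. Without Myh8 the other 8 summed to between 4.92 and 5.74 FPKM in cKO and between 5.15 and 6.23 FPKM in controls, and the groups overlapped. Bergmann glia markers (10 genes) summed to between 2003 and 2167 FPKM in cKO and between 2215 and 2285 FPKM in controls. That gap lay in Slc1a3, a glutamate transporter gene, and Gdf10, a growth factor gene, without which the sums lay between 1873 and 1890.3 FPKM in cKO and between 1805 and 1904 FPKM in controls, with overlap. Most of the remaining sum was Fabp7, at 1547, 1599 and 1596 FPKM in cKO and 1524, 1624 and 1584 FPKM in controls. Of the 10 markers, 4 were apart and lower in cKO (Slc1a3, Gdf10, Gpr37l1 and Etv5) and 1 was apart and higher. Over all tested loci 13.6% were apart and lower. The median log2 fold change of the 10 was -0.07. Of them limma called 1 higher (Slc4a4) and 1 lower (Gpr37l1). Sums over 9 mural cell and 6 choroid plexus markers overlapped between groups. Myh8, Mfsd2a, Slc1a3, Gdf10 and Fabp7 were singled out after their values were seen.

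The tested loci whose log2 values followed those of Sntb1 most closely over the 6 libraries were Alg2 (Pearson r = 0.998), Anxa6 (0.997) and Unc119 (0.996). These are descriptions over 6 libraries that split by genotype and sex, and 190 loci had an r over 0.95. The sizes of the differences were smaller than that of Sntb1. Alg2, a mannosyltransferase, had 65.8, 66.0 and 65.3 FPKM in cKO and 62.7, 62.1 and 63.6 FPKM in controls, a log2 fold change of 0.06. Anxa6, an annexin, had 36.0, 36.3 and 33.5 FPKM in cKO and 27.1, 24.3 and 28.3 FPKM in controls, a log2 fold change of 0.40. Unc119 had 50.5, 49.3 and 48.1 FPKM in cKO and 41.6, 39.9 and 43.7 FPKM in controls, a log2 fold change of 0.24. The groups did not overlap for any of the 3 loci.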

How the data were processed

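CASAVA, TopHat, Cufflinks and build mm10 are named per the submitters' processing notes, without versions. The authors deposited 1 table, whose values were read as FPKM per locus. No label names this unit, which rests on the use of Cufflinks, on its XLOC names and on the values. The annotation, the strand setting and any scaling by the authors were not stated. Libraries are numbered by their titles. For cKO 1 the description carries another number. Loci reaching 1 FPKM in 3 or more of the 6 libraries were tested on log2(FPKM + 1) with limma 3.58.1 in R 4.3.3 (trend, two-sided, Benjamini-Hochberg over all loci, threshold 0.05), which was tested on simulated data. The 8 genes, the lists and the tests were chosen with earlier results of these data known. The rule named the 8 genes, Zeb2, sex-linked genes, called genes and up to 3 others with the smallest p of each pathway list, and the 3 loci most like Sntb1. Sgca, Pomt2, Kcnj10 and single marker genes were named after their values were seen. Coordinates are from GENCODE M21. Some genes of the lists are not reported here and were left out of the lists and their counts. B4gat1 could not be matched to 1 symbol of the table. Processing sets were found from ratios of values under 0.1 FPKM between libraries. Alternatives changed the pseudocount, filter, scaling, variance model, threshold, loci or libraries. No sign was seen that replicate numbers pair the libraries, which does not exclude a pairing. Python 3.11.15 with numpy 2.4.6, pandas 2.3.3, scipy 1.17.1 and matplotlib 3.10.9 made tables and figures.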

Additional observations from a re-analysis of the deposited data

How the results depend on the processing

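Over 18 alternatives that could be fitted for Sntb1, the log2 fold change stayed positive in each (0.92 to 1.38) and the call held in 7 and was lost in 11 (limma adjusted p 0.0080 to 0.191). Among these 7 is the threshold of 0.1, a looser cut on the same fit, where the call could not be lost. The number of the 8 genes called was 1 as reported, 0 to 1 with 1 library left out, and 0 with the replicate block, the processing set as a covariate, the larger processing set alone, either other pseudocount, no filter, and a mean of at least 5 FPKM, a filter that leaves out Sntb1, Sntb2 and Dmd. Leaving out X and Y loci leaves out Dmd. The number of loci called, 78, was 21 to 55 with 1 library left out, 15 with the replicate block, 30 in the larger processing set alone, 28 with no filter, 30 at a mean of at least 5 FPKM, 325 without small-RNA loci, 336 with robust variance estimation and 409 at a threshold of 0.1; the cause was not tested. No sign of pairing by replicate number was seen. Deviations from group means correlated at -0.027, 0.037 and 0.049 for the same number, and cKO 1 and cKO 3 correlated best with another number. Correlations over so few libraries cannot exclude a pairing. With the replicate block, Sntb1 had a limma adjusted p = 0.168. The log2 fold change changed sign for Dag1 (-0.029 to 0.092 with 1 library left out, lowest without cKO 1), Sntb2 (-0.083 to 0.11, lowest without cKO 1), Sgcb (-0.018 to 0.048, lowest without cKO 2) and Pomt1 (-0.044 to 0.021, positive without cKO 1 and, at 0.0049, without control 2, and 0.0072 with quantile normalization). Zeb2 passed only without small-RNA loci (limma adjusted p = 0.0469). Of the pathway genes, 0 to 1 were called in any alternative (Aqp4 or Lamc1). Read depth is unknown, so the counting error of low levels, such as 2.03 FPKM for Sntb1 and 2.13 FPKM for Sntb2 in controls, cannot be given.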
